A study of Homo sapiens with 10 samples.

Results

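The ERBB receptors and their EGF-like ligands were followed in Caco-2 cells as 10 genes taken by symbol. They comprised 4 receptors (EGFR, ERBB2, ERBB3 and ERBB4), 5 ligands (AREG, EREG, TGFA, HBEGF and BTC) and ERRFI1, an intracellular inhibitor of the receptors. These are 10 of the 60554 genes in the tables, and 8 of the 10 were among the 11640 protein-coding genes expressed highly enough to be tested, while ERBB4 and TGFA were not. The study compared 10 libraries from Caco-2, a colon carcinoma cell line that takes on features of absorptive enterocytes in culture. Every library, controls included, came from a single clone that carries dCas9-KRAB, a Cas9 that cannot cut DNA fused to a repressor domain (CRISPR interference). The gCtl libraries (n = 5) had received the guide plasmid without a guide, and the others had received 1 of 2 guides directed at the long non-coding RNA LHFPL3-AS2, named g1 (n = 3) and g2 (n = 2). The cells had been grown as monolayers and selected with puromycin for the repressor and hygromycin for the guide plasmid. Nothing in the labels says that the libraries of a group came from separate cultures, so the p-values below measure the spread between these libraries only, and in bulk RNA fewer cells with a transcript cannot be told apart from less transcript per cell.

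ERBB receptors are single-pass membrane kinases. Binding of an EGF-like ligand lets a receptor pair with itself or with another family member, after which the kinase of one partner phosphorylates the tail of the other and the RAS-ERK, PI3K-AKT and STAT pathways are engaged. The ligands are made as membrane-anchored precursors and are released by ADAM proteases, and in the intestinal epithelium the family is known for supporting crypt proliferation and repair after injury. ERBB2 has no known ligand of its own, and ERBB3, which binds neuregulins, has a kinase domain of very weak activity and signals mainly through its partners.

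That difference can be read in the coding sequence of the catalytic loop, in exon 21 of each receptor, and is shown here because ERBB3 was the receptor whose level differed between the groups. The stretches below come from the longest coding transcript of each gene in GENCODE release 29 and are written on the coding strand, with the codon for the catalytic residue in capitals. They lie at chr7:55191743-55191784 (EGFR, plus strand), chr17:39725073-39725114 (ERBB2, plus strand), chr12:56097809-56097850 (ERBB3, plus strand) and chr2:211431035-211431076 (ERBB4, minus strand) of GRCh38.
EGFR: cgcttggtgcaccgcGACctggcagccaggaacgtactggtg
ERBB2: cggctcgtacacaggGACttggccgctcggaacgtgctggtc
ERBB3: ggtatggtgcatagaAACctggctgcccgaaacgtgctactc
ERBB4: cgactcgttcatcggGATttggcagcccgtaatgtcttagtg
The codon reads aspartic acid in EGFR, ERBB2 and ERBB4 and asparagine in ERBB3.

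In the libraries, LHFPL3-AS2 itself (chr7:104894628-104926645, minus strand, GRCh38) was not lower with the guides. It stood at 0.841 to 3.73 RPM in gCtl, where RPM scales the reads of a library to a total of 1000000, and at 2.03 to 6.01 RPM in the 5 libraries labelled g1 or g2. These values rest on few reads, 4.39 to 20.7 estimated counts per library in gCtl and 13.2 to 44.0 with the guides. By qPCR, which was not part of these data, the authors reported a reduction of LHFPL3-AS2 with both guides. The mean of log2(RPM + 1) was 0.47 higher with the guides, with p = 0.190 in an exact two-sided permutation test of 5 against 5 libraries, and groups are therefore called by their labels. Depth ranged from 3838803 to 8730468 estimated counts per library. Of 16 enterocyte markers 12 were expressed highly enough to be tested and 0 were called in the pooled comparison or with g1. Of all tested genes 19.2% and 16.8% were called there. With g2, 2 of the 12 were called higher and 1 lower, beside 23.7% of all tested genes called, so these calls are not set apart. KRT20 (1.91, adjusted p = 0.00307) and CDH17 (0.72, adjusted p = 0.0130) were higher with g2 and KRT18 (-0.78, adjusted p = 0.0494) lower on the log2 scale, named after their values were seen. CDX1, SI, ANPEP and ALPI were below the filter. Of 12 markers of fibroblasts, leukocytes and endothelium 3 could be tested. CD14, a leukocyte marker, was lower in the pooled comparison (-1.67, adjusted p = 0.0110) and with g2 (-2.63, adjusted p = 0.00531). It lay at 2.46 to 3.85 CPM in gCtl, where CPM are RPM corrected by the TMM factors of edgeR, with every library of a guide below that range, and it passed the filter only through gCtl. Of all tested genes 8.35% lay below in this way. The pooled call of CD14 was lost when tested against a fold of 1.5 (glmTreat, adjusted p = 0.0725). PECAM1, an endothelial marker named after its value was seen, was higher with g1 (1.29, adjusted p = 0.0214), where 6.81% of all tested genes were called higher. The summed level of these markers of other cells was 9.63 to 16.8 CPM in gCtl, 16.5 to 22.9 in g1 and 8.88 to 14.0 in g2. Mitochondrial transcripts took 18.3 to 23.97% of the counts in gCtl, 19.0 to 20.6% in g1, and 16.8% and 12.0% in the 2 g2 libraries, and the part of these markers and shares in the results below was not tested.

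In the gCtl cells the family was dominated by a pair of ligands. Levels of different genes were compared per length, as TPM, the deposited counts divided by transcript length and scaled to the same total. The libraries were made with QuantSeq, whose reads start at the 3' end of the RNA. Counts then need not grow with transcript length, so an order per length holds on this scale only. AREG, the EGFR ligand amphiregulin, stood at 345.3 ± 73.6 TPM (SD, n = 5), above the other members in all 5 gCtl libraries and above 97.7% of the tested genes. EREG, the ligand epiregulin, which binds EGFR and ERBB4, followed at 78.6 ± 10.7 TPM. The receptors were lower, with ERBB2 at 22.6 ± 5.26 TPM, ERBB3 at 20.9 ± 2.78 TPM and EGFR at 11.1 ± 1.77 TPM. Per length, ERBB2 exceeded ERBB3 in 2 of the 5 libraries, so the order of these neighbours was not set beyond their spread. ERBB3 exceeded EGFR per length in all 5. By counts the order of these receptors was reversed, with 1391 counts for EGFR, 1166 for ERBB3 and 668 for ERBB2 over the gCtl libraries. HBEGF, the heparin-binding ligand, stood at 7.63 ± 2.21 TPM and was below EGFR in 4 of 5 libraries. ERRFI1 stood at 2.80 ± 1.33 TPM and BTC, the ligand betacellulin, at 0.717 ± 0.555 TPM. ERBB4 received 2 estimated counts and TGFA 7 over all 10 libraries, too few for a test. For TGFA the 4 counts with the guides and the 3 in gCtl gave a ratio of RPM of 0.993 with a 95% counting interval of 0.168 to 6.78, so a change of several-fold was not detectable at this depth. That interval and those given for LIN7A cover counting error only.

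**Figure D1:**
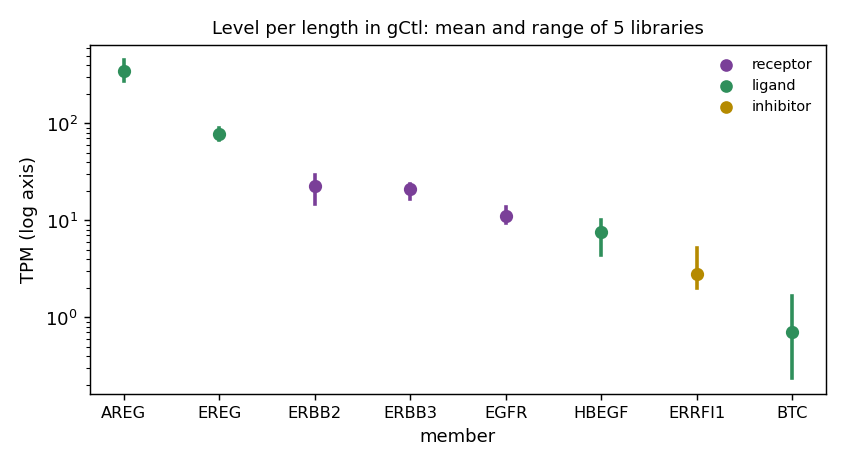
Level of each member per length in gCtl, in TPM on a log axis; points are means and bars the lowest and highest of 5 libraries. AREG at 345.3 TPM and EREG at 78.6 TPM stand above the 3 receptors, and BTC at 0.717 TPM is the lowest member drawn, since ERBB4 and TGFA had libraries at 0.

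Of the 10 members, ERBB3 and AREG rose in the pooled comparison of g1 and g2 with gCtl and 0 fell. They passed an edgeR adjusted p of 0.05 or less with a fold change of at least 1.5, the rule used for every call below. BTC passed it too, but entered the test only through 2 g1 libraries, where it was high, so its call adds nothing to the count. By the same rule 19.2% of all tested genes were called and 8.14% were called higher. With g1 against gCtl ERBB3 and AREG rose, again with a call of BTC under the same limit, where 16.8% of tested genes were called and 6.81% called higher. With g2 against gCtl ERBB3 and AREG rose, where 23.7% were called and 10.7% called higher. Both comparisons use the same 5 gCtl libraries. No member differed between g2 and g1 by this rule (0 called, 1 at an unadjusted p under 0.05, and 0 by DESeq2), where 4.98% of tested genes were called. With members chosen by name and 8 of them testable, these counts describe the family and are not set apart from the background.

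**Figure D2:**
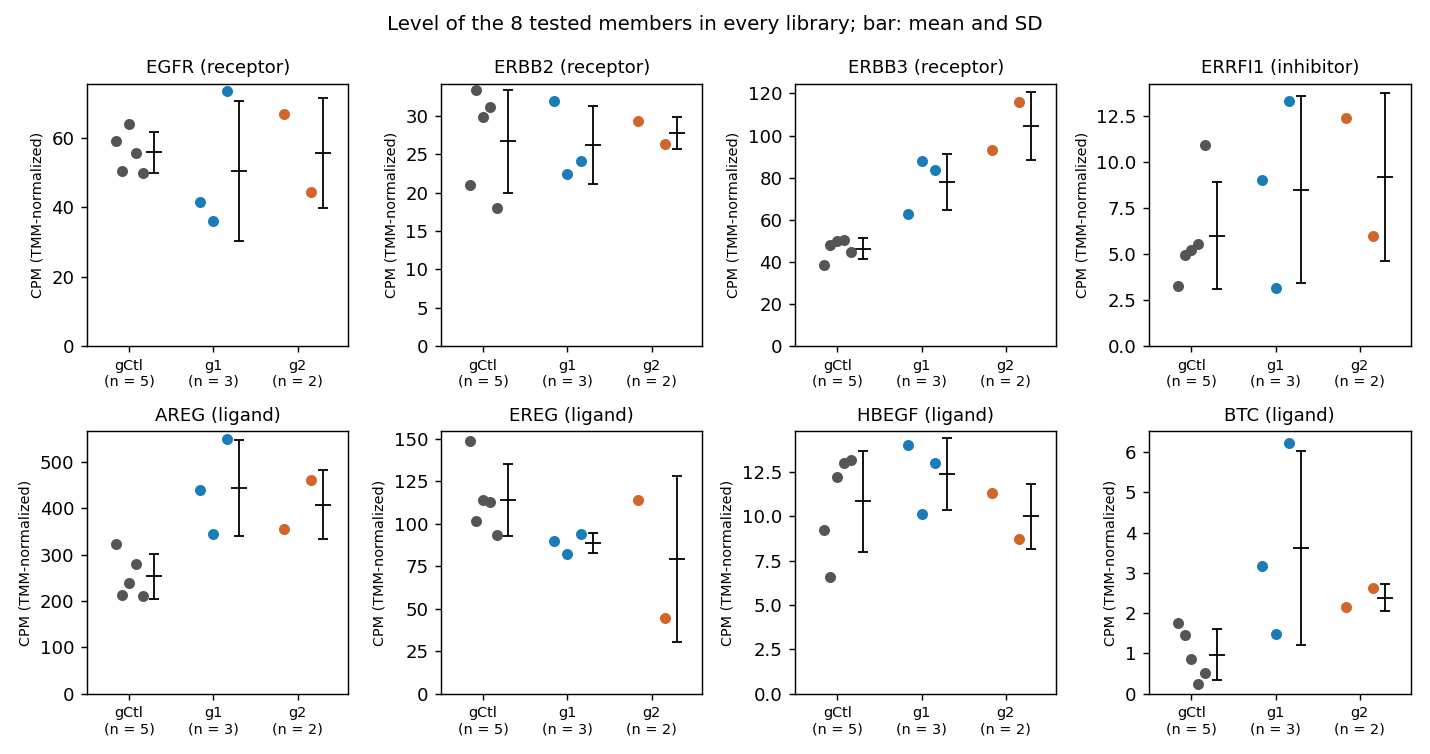
Level of the 8 tested members in each library, in TMM-normalized CPM, with the mean and SD of each group beside the points. The 5 libraries with a guide lie above all 5 gCtl libraries for ERBB3 (62.8 to 115.8 against 38.5 to 50.5 CPM) and AREG (343.7 to 548.8 against 210.2 to 322.9 CPM), and the groups overlap for the other 6. Of all tested genes 7.08% lay above in this way.

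Among the receptors, ERBB3 rose with both guides. It stood at 38.5, 48.1, 49.8, 50.5 and 44.7 CPM in gCtl. It stood at 62.8, 87.9 and 83.5 CPM in g1 and at 92.9 and 115.8 CPM in g2. All 5 libraries with a guide were above all 5 gCtl libraries, which held for 7.08% of tested genes in this direction, and both g2 libraries were above all 3 of g1, which held for 15.6%. The pooled log2 fold change was 0.93 (SE 0.156, adjusted p = 0.000961), a level 1.91 times that of gCtl. It was 0.75 (SE 0.150, adjusted p = 0.00307) with g1 and 1.17 (SE 0.165, adjusted p = 0.000204) with g2. The difference of 0.42 between the guides (SE 0.185) had an unadjusted p of 0.0370 and an adjusted p of 0.207. ERBB3 was called in 22 of 23 alternative analyses of the pooled comparison. The exception was a test of whether the fold change exceeds 1.5 (glmTreat), with an adjusted p of 0.0871, and under that test it remained called with g2.

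EGFR and ERBB2 gave no such difference. EGFR, the receptor for all of the ligands listed here, lay between 49.8 and 63.8 CPM in gCtl, at 41.5, 36.1 and 73.4 CPM in g1 and at 66.9 and 44.5 CPM in g2. Libraries with a guide thus lay on both sides of the gCtl range, and the pooled log2 fold change was -0.08 (SE 0.186, adjusted p = 0.773). ERBB2, the preferred partner of the other receptors, lay between 18.0 and 33.3 CPM in gCtl and between 22.4 and 32.0 CPM with the guides. Its pooled log2 fold change was 0.01 (SE 0.185, adjusted p = 0.986). The 2 receptors were not called in any of the 4 comparisons, nor in any of the 23 alternatives to each.

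**Figure D3:**
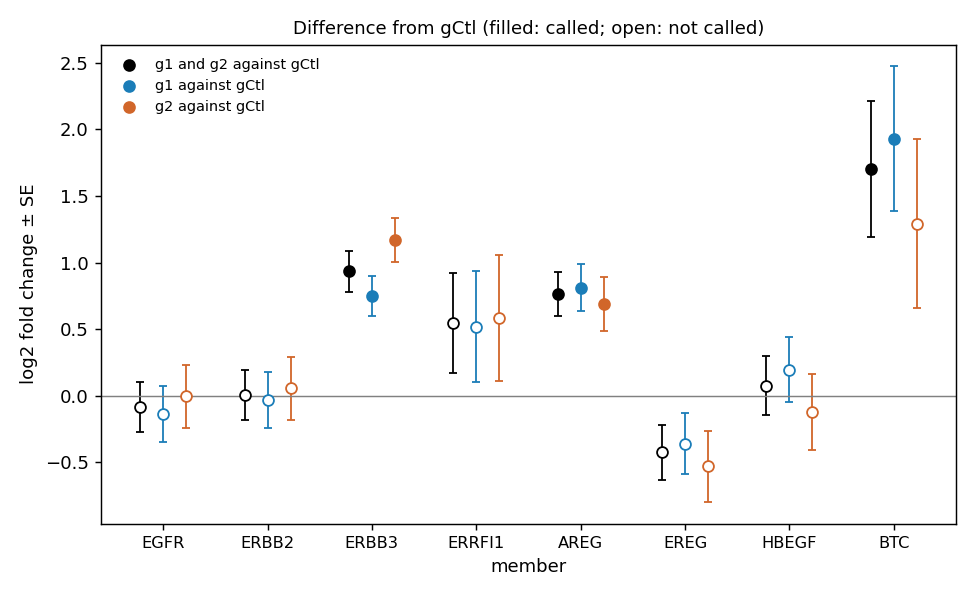
Log2 fold change from gCtl with its standard error for the 8 tested members, for both guides pooled (black), g1 (blue) and g2 (orange); filled points were called. ERBB3 and AREG are filled in all 3 comparisons, BTC in the pooled one (1.70) and with g1 (1.93), and the other 5 members in none.

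The balance of receptor transcripts was also read within each library, as ratios that do not depend on how libraries are scaled to each other. ERBB3 took 32.5 to 39.7% of the receptor counts in gCtl, 46.1 to 60.0% in g1, and 49.2% and 62.0% in g2. The ratio of ERBB3 to EGFR counts was 0.652 to 0.953 in gCtl, 1.14 to 2.44 in g1, and 1.39 and 2.602 in g2. EGFR thus had more counts than ERBB3 in every gCtl library and fewer in every library with a guide. The ratio of ERBB3 to ERBB2 overlapped between the groups, at 1.44 to 2.49 in gCtl and 1.96 to 4.40 with the guides. The ratio of EGFR to ERBB2 overlapped as well, at 1.52 to 2.81 in gCtl and 1.30 to 3.04 with the guides. Counts of different genes are compared here within a ratio and between groups, not as levels per length.

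Among the ligands, AREG rose and its neighbour EREG did not. AREG, EREG and BTC lie on chromosome 4 with the ligand gene EPGN, and these were the only 4 protein-coding genes annotated from EPGN to BTC (chr4:74308473-74794686, GRCh38). EREG (chr4:74365143-74388751, plus strand) ends 56382 bases before AREG (chr4:74445134-74455009, plus strand). BTC (chr4:74744759-74794686) lies on the minus strand, 289749 bases beyond AREG. The 250 bases before the RefSeq start of each gene (GRCh38.p14) are given for these 3 neighbours, since their values differed, at chr4:74444886-74445135 for AREG, chr4:74364895-74365144 for EREG and chr4:74794524-74794773 on the minus strand for BTC. Capitals mark any match on either strand to the TATA box TATAAA, the GC box GGGCGG, the cyclic AMP response element TGACGTCA, the AP-1 site TGANTCA or the TCF/LEF site CTTTGAT. No matches overlapped in these windows.
AREG: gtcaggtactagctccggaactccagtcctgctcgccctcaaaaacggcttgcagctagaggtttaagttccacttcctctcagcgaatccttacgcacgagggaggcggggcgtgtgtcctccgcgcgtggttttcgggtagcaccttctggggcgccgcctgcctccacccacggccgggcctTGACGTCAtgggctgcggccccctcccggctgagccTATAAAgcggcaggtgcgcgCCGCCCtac
EREG: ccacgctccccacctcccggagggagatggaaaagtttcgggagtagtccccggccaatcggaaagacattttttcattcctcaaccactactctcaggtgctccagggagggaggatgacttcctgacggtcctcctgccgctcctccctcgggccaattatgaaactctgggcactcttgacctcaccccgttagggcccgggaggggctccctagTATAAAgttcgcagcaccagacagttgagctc
BTC: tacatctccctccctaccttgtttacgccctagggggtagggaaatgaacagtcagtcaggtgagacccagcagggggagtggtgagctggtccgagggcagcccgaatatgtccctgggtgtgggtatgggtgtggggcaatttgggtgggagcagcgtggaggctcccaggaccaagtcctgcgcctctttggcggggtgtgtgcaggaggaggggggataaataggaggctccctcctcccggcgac
AREG and EREG each held a TATA box, starting 29 and 32 bases before the start site, which 10.7% of the 35116 RefSeq promoter windows held. AREG also held a cyclic AMP response element 65 bases before the start, a match in 1.65% of windows, and a GC box, a match in 42.6%. The BTC window held no match to these letters, and the AP-1 and TCF/LEF letters, in 6.57% and 2.26% of windows, were in none of the 3. These matches describe letters and say nothing of binding.

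AREG stood at 322.9, 212.8, 239.4, 280.6 and 210.2 CPM in gCtl. With g1 it stood at 438.6, 343.7 and 548.8 CPM and with g2 at 355.8 and 460.1 CPM. The lowest library with a guide was above the highest gCtl library, which held for 7.08% of tested genes in this direction. The pooled log2 fold change was 0.76 (SE 0.165, adjusted p = 0.00454), a level 1.70 times that of gCtl. It was 0.81 (SE 0.178, adjusted p = 0.00527) with g1 and 0.69 (SE 0.202, adjusted p = 0.0203) with g2, and the difference between the guides was -0.12 (SE 0.227, adjusted p = 0.810). The call with g2 was lost in 5 of 23 alternatives: with libraries scaled by their totals alone (log2 fold change 0.53, adjusted p = 0.0655), with limma on RPM (0.54, adjusted p = 0.0639) or TPM (0.52, adjusted p = 0.131), with glmTreat, and without g2 replicate 2 (0.50, adjusted p = 0.191). The pooled call and the call with g1 were lost with glmTreat only.

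EREG lay at 148.3, 101.7, 113.8, 112.6 and 93.4 CPM in gCtl, at 89.8, 82.3 and 93.9 CPM in g1, and at 113.7 and 44.7 CPM in g2. In g1, 2 of 3 libraries were below the gCtl range, and the 2 g2 libraries stood far apart from each other, 1 inside that range and 1 well below it. The pooled log2 fold change was -0.42 (SE 0.204, adjusted p = 0.140), with -0.36 (SE 0.229) for g1 and -0.53 (SE 0.267, adjusted p = 0.155) for g2. The g2 value rests on 1 library, being -1.35 (adjusted p = 0.00137) without g2 replicate 1 and 0.00 without g2 replicate 2. On the log2(RPM + 1) scale limma called it lower with g2 at -0.81 (adjusted p = 0.0278).

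Within every library with a guide, AREG held a larger part of the ligand counts than in any gCtl library. The ratio of AREG to EREG counts was 2.18, 2.09, 2.10, 2.49 and 2.25 in gCtl. It was 4.88, 4.18 and 5.85 in g1 and 3.13 and 10.3 in g2. The gCtl ratios lay close together, at 2.22 ± 0.163 (SD, n = 5), although the AREG level itself ranged from 210.2 to 322.9 CPM, and no library with a guide came down to them. The lowest, g2 replicate 1, was the g2 library with the higher EREG, and the highest, g2 replicate 2, the one with the lower EREG. AREG took 65.3 to 69.0% of the counts of the 5 ligands in gCtl, 78.5 to 82.9% in g1, and 73.7% and 89.1% in g2. EREG took 27.7 to 31.5% in gCtl, 14.2 to 18.8% in g1, and 23.6% and 8.66% in g2. The receptor and ligand ratios were picked after the values were seen and were not tested.

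**Figure D4:**
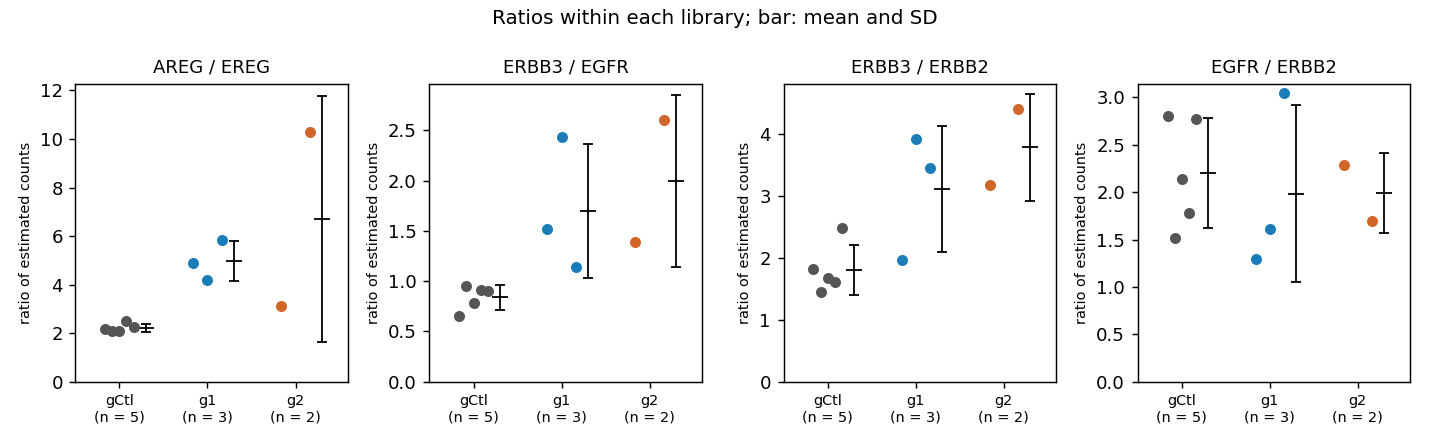
Ratios of estimated counts within each library by group, with the mean and SD beside the points. AREG to EREG (2.09 to 2.49 in gCtl, 3.13 to 10.3 with the guides) and ERBB3 to EGFR (0.652 to 0.953 in gCtl, 1.14 to 2.602 with the guides) do not overlap between gCtl and the libraries with a guide, whereas the other 2 ratios do.

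BTC, which binds EGFR and ERBB4, was near the limit of detection. It had 7, 8, 5, 1 and 3 counts in gCtl, 19, 7 and 51 in g1, and 12 and 18 in g2. In CPM the gCtl libraries lay between 0.241 and 1.75, the g1 libraries at 3.17, 1.48 and 6.21, and the g2 libraries at 2.15 and 2.62. One g1 library lay inside the gCtl range and the other 4 libraries with a guide above it. The pooled log2 fold change was 1.70 (SE 0.510, adjusted p = 0.0249), with 1.93 (SE 0.543, adjusted p = 0.0206) for g1 and 1.29 (SE 0.635, adjusted p = 0.143) for g2. BTC met the filter, with 3 RPM exceeded in 20% of libraries or more, only through g1 replicates 1 and 3, and without either it was not tested. The pooled call was lost without gCtl replicate 3 (adjusted p = 0.0575), 4 (adjusted p = 0.0621) or 5 (adjusted p = 0.0512), with limma on TPM (log2 fold change 0.65, adjusted p = 0.130) and with glmTreat.

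HBEGF lay between 6.61 and 13.2 CPM in gCtl, between 10.1 and 14.0 CPM in g1, and at 11.3 and 8.72 CPM in g2. Its pooled log2 fold change was 0.08 (SE 0.224, adjusted p = 0.831), and all libraries with g2 lay inside the gCtl range.

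ERRFI1, which binds the kinase domain and is known as a feedback inhibitor of EGFR, varied as much within groups as between them. It lay at 3.25, 4.96, 5.23, 5.54 and 10.9 CPM in gCtl, at 8.998, 3.17 and 13.3 CPM in g1, and at 12.4 and 5.96 CPM in g2. The pooled log2 fold change was 0.55 (SE 0.372, adjusted p = 0.302). ERRFI1 and HBEGF were called in none of the 4 comparisons and in none of the alternatives.

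QuantSeq reads start at the 3' end of polyadenylated RNA, so the transcripts that took the counts of a member show where its reads lay. For ERBB3, 95.7% of the counts over all libraries went to ERBB3-004 (ENST00000549832.1, 3289 bases, chr12:56098251-56103499), which covers the last part of the gene (chr12:56076799-56103505) and begins beyond the catalytic loop stretch printed above. For AREG, 75.4% went to AREG-002 and 14.7% to AREG-001, which end 4 bases apart. For EGFR, 83.2% went to EGFR-001, which reaches the annotated end of the gene (chr7:55019021-55211628), and 12.8% to EGFR-202, which ends 4291 bases earlier. For EREG, 69.3% went to EREG-001 and 27.2% to EREG-003, a non-coding transcript of 598 bases that ends 3799 bases before EREG-001. EREG-001 took 62.0 to 83.2% of the EREG counts in gCtl, 51.7 to 64.1% in g1, and 77.7% and 57.5% in g2. With limma the EREG difference with g1 was -0.39 on the log2(RPM + 1) scale and 0.27 on the log2(TPM + 1) scale (adjusted p = 0.240 and 0.392), neither of them called. For ERBB2, ERBB2-202 and ERBB2-018 took 39.1% and 39.0%, and ERBB2-018 ends 5223 bases before the end of the gene (chr17:39687914-39730426). ERBB2-018, of 754 bases, took 25.7 to 56.7% of the ERBB2 counts in gCtl, 45.9 to 64.05% in g1, and 21.6% and 26.8% in g2. On the log2(TPM + 1) scale limma gave ERBB2 0.35 with g1, -0.31 with g2 and -0.65 between the guides. None of these was called (adjusted p = 0.342, 0.444 and 0.221). The end of ERBB2 overlaps MIEN1 (chr17:39728496-39730787, minus strand), and whether counting used strand is not given in the sources used here, so ERBB2 counts from that overlap are uncertain.

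The genes around the family were read from 7 lists, all beside a median log2 fold change of 0.02 over the tested genes and 19.2% called in the pooled comparison. Of the other EGF-family ligands only NRG4, an ERBB4 ligand, could be tested, and it was not called (-0.78, SE 0.479, adjusted p = 0.250) and passed the filter only through gCtl. EGF, EPGN, NRG1, NRG2 and NRG3 were below the filter, so of the neuregulins that bind ERBB3 directly, NRG1 and NRG2, neither was measured highly enough to compare.

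In the list of ligand shedding, 2 of 6 tested genes fell and 0 rose, with a median of -0.51. By guide, 2 of the 6 fell with g1 and 3 with g2, where 16.8% and 23.7% of tested genes were called. The 2 that fell in the pooled comparison act on the release of ligands rather than as ligands. RHBDF2 encodes iRhom2, which carries the protease ADAM17 to the cell surface, and went from 15.3 ± 2.70 CPM in gCtl (SD, n = 5) to 5.26 ± 1.04 CPM with the guides (SD, n = 5), a log2 fold change of -1.53 (SE 0.211, adjusted p = 0.000259). FRMD8 encodes a partner that stabilises the iRhom proteins and went from 55.3 ± 5.59 to 21.4 ± 9.87 CPM (-1.37, SE 0.258, adjusted p = 0.00204). For both genes every library with a guide was below every gCtl library, which held for 8.35% of tested genes. ADAM17 itself, named for its role beside them after its value was seen, had a log2 fold change of 0.13 (SE 0.165, adjusted p = 0.591).

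Of 26 adaptors and effectors, all tested, 2 rose and 2 fell, with a median of 0.05. PIK3R1, the regulatory subunit of PI3K, rose by 0.76 (SE 0.150, adjusted p = 0.00269) and STAT3 rose by 0.60 (SE 0.153, adjusted p = 0.0114). GRB7, an adaptor that binds activated ERBB receptors, fell by 1.61 on the log2 scale (SE 0.416, adjusted p = 0.0122) and HRAS, a RAS GTPase, fell by 1.20 (SE 0.212, adjusted p = 0.00136). With glmTreat neither PIK3R1 (adjusted p = 0.33) nor GRB7 (adjusted p = 0.0825) was called. Of 20 genes of receptor turnover and inhibition, 1 rose and 1 fell, with a median of 0.24. LRIG2 rose by 0.74 (SE 0.216, adjusted p = 0.0220), and LRIG1, which promotes degradation of ERBB receptors, fell by 0.96 (SE 0.305, adjusted p = 0.0321). The call of STAT3 was lost without gCtl replicate 1 or 2 or g2 replicate 2 (its fold then under 1.5, at 0.54, 0.57 and 0.49). The same call was lost with library totals alone (0.51), genes of all biotypes (0.57), limma on RPM (0.50) or TPM (0.36), glmTreat, and the length trend removed (0.53). That of LRIG2 was lost without gCtl replicate 1, 2 or 4 or g2 replicate 2 (adjusted p of 0.05, rounded, to 0.0617), and that of LRIG1 without any of gCtl replicates 1 to 4, g1 replicate 3 or g2 replicate 2 (adjusted p of 0.0627 to 0.0947). LRIG1 was also not called with limma on TPM (-0.54, adjusted p = 0.187), and glmTreat called neither LRIG2 nor LRIG1. By guide, 2 adaptors and effectors rose and 3 fell with g1, and 4 rose and 3 fell with g2. Of the turnover genes 0 rose and 1 fell with g1, and 3 rose and 1 fell with g2. Of all tested genes 16.8% were called with g1 and 23.7% with g2. In each of the 2 lists 1 gene not called in the pooled comparison was lower with g2 than with g1, where 4.98% of tested genes were called.

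Of 17 tested genes of the ERK feedback and immediate target list, 2 rose and 2 fell, with a median of 0.34. FOS, an immediate early transcription factor, lay between 0.75 and 1.44 CPM in gCtl and between 2.95 and 8.43 CPM with the guides, a log2 fold change of 2.22 (SE 0.400, adjusted p = 0.00155). FOS passed the filter only through libraries with a guide, where it was high, so its call adds nothing to the count of this list. IER3, another immediate early gene, rose by 0.97 (SE 0.214, adjusted p = 0.00540). ETV5, a transcription factor induced by ERK signalling, went from 16.3 ± 2.06 to 3.38 ± 1.82 CPM (-2.28, SE 0.288, adjusted p = 0.000143), and PHLDA1 fell by 0.89 (SE 0.222, adjusted p = 0.0103). The members of this list that moved thus did so in both directions. The calls of IER3 and PHLDA1 were lost with glmTreat (adjusted p = 0.163 and 0.268).

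Of 9 tested receptor chaperones and basolateral anchors, 1 rose and 2 fell, with a median of 0.03. LIN7A, a scaffold that binds basolateral membrane proteins, went from 10.2 ± 1.71 to 1.02 ± 0.925 CPM (-3.33, SE 0.483, adjusted p = 0.000377). With g2 it had 2 counts against 261 in gCtl, a ratio of RPM of 0.0138 with a 95% counting interval of 0.00167 to 0.0504. LIN7A passed the filter only through gCtl, where it was high, so its call adds nothing to the count of this list. AP1M2, the epithelial subunit of the AP-1 adaptor that sorts proteins to the basolateral membrane, fell by 1.81 (SE 0.235, adjusted p = 0.000165). AP1M1, the ubiquitous form of the same subunit, rose by 0.62 (SE 0.124, adjusted p = 0.00291), and fell short of the fold minimum without g1 replicate 2 (0.56). The call of AP1M1 was also lost with library totals alone (0.54), limma on RPM (0.52) or TPM (0.31), glmTreat, and the length trend removed (0.42). Among 10 tested genes near ERBB2 on chromosome 17, 3 fell and 0 rose, with a median of 0.09. These were GRB7, which starts 7500 bases beyond ERBB2 and also stands in the adaptor list, PGAP3, which overlaps the start of ERBB2 (-1.47, SE 0.331, adjusted p = 0.00594) and passed the filter only through gCtl, and ORMDL3 (-0.79, SE 0.225, adjusted p = 0.0204), whose call was lost without gCtl replicate 3 (adjusted p = 0.0542) or 4 (adjusted p = 0.0619). As with LIN7A, the call of PGAP3 adds nothing to the count of its list. The PGAP3 call was also lost with glmTreat (adjusted p = 0.0531). ORMDL3 was also not called with the length trend removed (-0.48, adjusted p = 0.130) or with glmTreat. ERBB2, between PGAP3 and GRB7, had the pooled value of 0.01 given above. By guide, 0 of the 10 neighbours rose and 2 fell with g1, and 2 rose and 4 fell with g2. Of all tested genes 16.8% were called with g1 and 23.7% with g2.

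**Figure D5:**
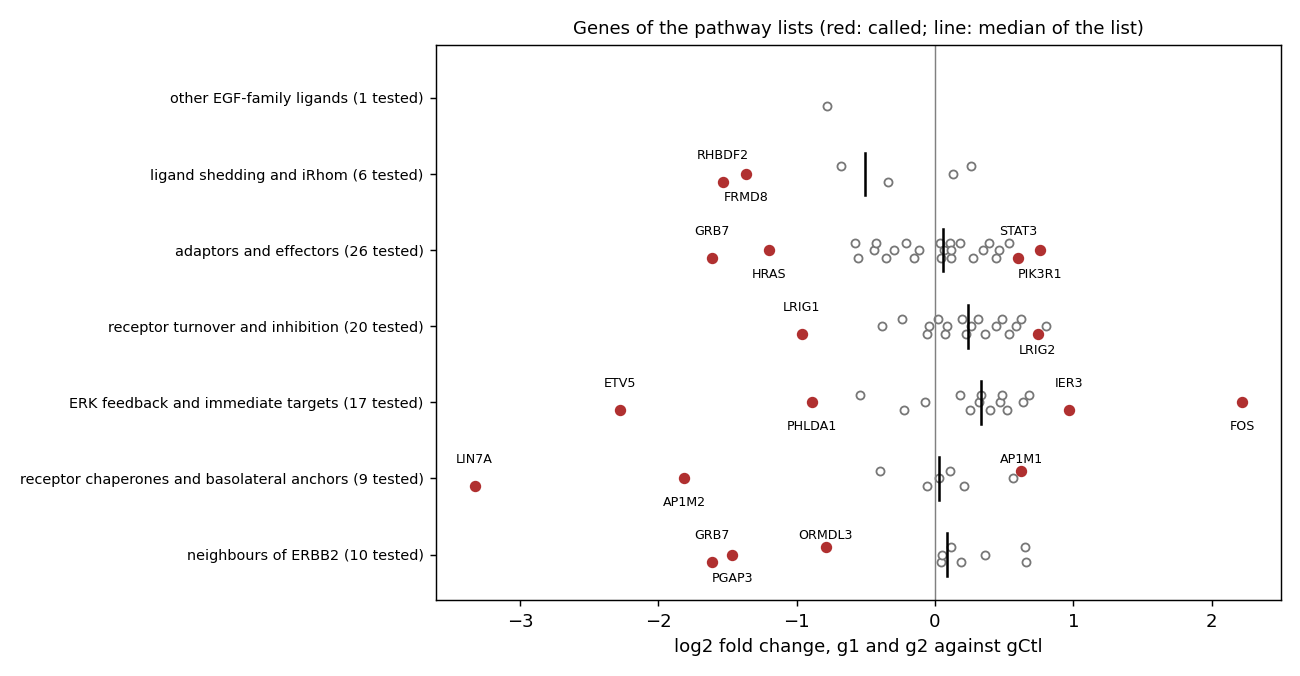
Log2 fold change of g1 and g2 against gCtl for the tested genes of each pathway list; red points were called and named, open points were not, and the black line is the median of a list. Called genes lie on both sides of 0 in the adaptor, turnover, ERK and chaperone lists, and below 0 only in the shedding list (RHBDF2, FRMD8) and among the neighbours of ERBB2 (GRB7, PGAP3, ORMDL3).

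The genes whose log2(CPM + 1) followed ERBB3 most closely over the 10 libraries were PIGR (Pearson r = 0.981), which encodes the receptor that carries polymeric immunoglobulin across epithelia, CLEC7A (r = 0.972), which encodes the beta-glucan receptor dectin-1, and NEMP2 (r = 0.969). They were the highest of 11639 genes, of which 109 had r above 0.9. PIGR rose by 1.10 (SE 0.22), CLEC7A by 1.31 (SE 0.24) and NEMP2 by 0.95 (SE 0.18) in the pooled comparison. With glmTreat PIGR (adjusted p = 0.0702) and NEMP2 (adjusted p = 0.112) were not called. The libraries share their groups, so a gene that differs between the groups as ERBB3 does scores high. For BTC the closest were WBP1L (r = 0.934), CYTH1 (r = 0.930) and STAM2 (r = 0.923), but at 1 to 51 counts a library this order is a description of few reads.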

How the data were processed

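Caco-2 libraries prepared with QuantSeq, a 3' end method, were analysed from 1 table per library. The authors aligned reads to GENCODE transcripts with Kallisto and deposited estimated counts per transcript, not normalized and not pooled across libraries. Estimated counts were summed per gene and rounded, and protein-coding genes that exceeded 3 RPM in 20% or more of the 10 libraries entered edgeR 4.0.16 (glmQLFit and glmQLFTest, TMM normalization) in R 4.3.3, with Benjamini-Hochberg adjustment over 11640 genes. The guides were fitted as 1 pooled group and again as 3 groups sharing 1 estimate of spread (biological coefficient of variation 0.205). TPM was computed from the counts and annotated transcript lengths. A gene was called at an adjusted p of 0.05 or less and a fold change of 1.5 or more. On simulated counts of 11640 genes 99.5% of 200 genes changed 3-fold were called in the pooled comparison, with 13 false calls among the unchanged genes. The simulation gave all genes the same spread and changed them alike with both guides, so these rates need not hold for these data or for smaller changes. Same-group libraries differed by more than counting noise in all 14 pairs. Alternatives covered DESeq2 1.42.0, limma 3.58.1, scaling, filters, thresholds, transcript length and leaving out each library.

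The members and lists were chosen with earlier results of these data known. Besides all members, the text names up to 3 called genes in each direction per list, the 3 genes most correlated with the called receptor and ligand of largest fold change, and LHFPL3-AS2. ADAM17, NRG4, MIEN1, KRT18, KRT20, CDH17, PECAM1 and marker or ligand genes below the filter were named outside this rule. Sequences came from GENCODE release 29 and RefSeq, which gave promoters for 9 of 10 members.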

Additional observations from a re-analysis of the deposited data

Results flagged for a closer look

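In the gCtl libraries HRAS stood apart in replicate 2, at 12.1 CPM against 18.99 to 21.6 CPM in the other 4, a gap of 0.722 of the whole range. This was the only such library among 40 members and named genes examined, and about 1 gene in 20 is picked out this way by chance. HRAS was below this library in all 5 libraries with a guide, and 8.35% of tested genes were likewise below every gCtl library.

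The effects of the 2 guides differed by edgeR's test of g2 against g1 for 5 of 39 named genes, members included. Of all tested genes 4.98% were called in this comparison. Many of the 39 were named for their calls or values in these data, so the 2 shares cannot be set against each other. FRMD8 was lower with g2, at a log2 fold change of -1.34 from g1 (adjusted p = 0.00176), a call kept in all 23 alternatives. PHLDA1 differed in the same direction by -0.87 (adjusted p = 0.0479), a call lost in 12 of 23 alternatives. LIN7A differed by -3.10 (adjusted p = 0.0366, lost in 10 of 23), with 2 counts in g2 and 29 in g1 (ratio of RPM 0.0981, 95% counting interval 0.0113 to 0.388). LIN7A passed the filter only through gCtl. These 3 genes fell with each guide against gCtl. MIEN1, named for its overlap with ERBB2, differed by -0.97 (adjusted p = 0.00394, lost in 1 of 23), at 0.37 with g1 (not called) and -0.60 with g2. KRT20, an enterocyte marker, differed by 1.65 (adjusted p = 0.0408, lost in 9 of 23).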

How the results depend on the processing

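No paired analysis was possible because the labels carry no replicate numbers. The replicate numbers used here were given in the order of the samples within each group. Tested against a fold of 1.5 (glmTreat), 488 genes were called in the pooled comparison in place of 2232, 506 in place of 1950 with g1, 802 in place of 2757 with g2 and 92 in place of 580 between the guides, and the members called were 0, 0 and 1 for the first 3. These counts include BTC, which passed the filter through g1 libraries alone. Members called with g2 also fell to 1, ERBB3, with library totals alone and with limma on TPM. Between the guides 159 genes were called when only g1 and g2 libraries entered the fit. Leaving out 1 library at a time gave 1702 to 2424 called genes in the pooled comparison, 1249 (without g1 replicate 3) to 2263 with g1, 1499 (without g2 replicate 2) to 3111 with g2 and 267 to 859 between the guides, the lowest without g1 replicate 1 and 314 without g1 replicate 2. The members called were 2 to 3, 2 to 3, 1 to 3 and 0 to 1, the last being EREG without g2 replicate 1. The higher level of LHFPL3-AS2 ranged from 0.29 to 0.63. With library totals alone 69.4% of pooled calls and 73.3% of those with g2 were lower, in place of 57.5% and 54.9%, and the median of all genes with g2 moved from 0.00 to -0.16. Over 3580 values of the named genes, 182 lost a call, 32 gained one, and 90 uncalled values changed sign, while no called value did. The causes were not tested.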
